A study of Mus musculus with 6 samples.

Results

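The 10 genes described here encode transcription factors of the immediate early and stress responses, namely Atf3, Fos, Fosl1, Fosl2, Jun, Junb, Egr1, Myc, Maff and Klf4. They are 10 of the 41709 genes in the deposited table and were found by symbol. They were chosen by measured values of these libraries, since the list around Atf3 was put together with the differences between these groups known. The differences of the 10 genes between the groups are therefore given as a description, with no p-value for any of them. Counts of members past a threshold only describe the list and support nothing.

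RNA was sequenced from 6 tibialis anterior (TA) muscles of male C57BL/6J mice, 14 days after electroporation of pCMV6 plasmids encoding Flag-tagged Lrpprc, a mitochondrial and nuclear RNA-binding protein. In 3 muscles the plasmid encoded the wild-type protein (LrpprcWT), and in the 3 contralateral muscles it encoded LrpprcP27A, in which the proline at position 27 is replaced by alanine and can no longer be dihydroxylated. The age of these mice is not given in the sources used here, and the study worked with mice of 4 and 27 months. All 6 muscles also carried their own Lrpprc gene, the CMV promoter of the plasmid is not restricted to myofibres, reads of plasmid and endogenous Lrpprc cannot be told apart, and no muscle without a plasmid was analysed here.

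Immediate early genes are transcribed within minutes of a stimulus, before any new protein is made, when MAP kinases phosphorylate factors that already sit on their promoters, such as SRF with ELK1 and CREB. Their products include the AP-1 factors, dimers of a Jun protein with a Fos, Atf or Maf protein, and zinc finger factors such as EGR1 and KLF4. In muscle these genes respond to contraction, stretch, injury and regeneration, and their short-lived mRNAs are also raised by tissue handling and dissociation.

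The sequences upstream of 4 members are shown because these genes fall into different patterns below. Fos and Junb varied together among the LrpprcWT muscles, and Atf3 had the lowest log2 fold change of the members tested on log2(TPM + 1). Maff alone of the 9 members searched held the full sequence TGACGTCA of the cAMP response element. Each stretch holds the 250 bases before the start of the canonical transcript in GENCODE M39 (build GRCm39), written from the 5′ to the 3′ end on the gene's own strand. Capitals mark a TATA box (TATAAA) in Fos and Junb and a cAMP response element (TGACGTCA) in Maff, and the Atf3 stretch holds neither.
Fos, chr12:85520408-85520657, plus strand: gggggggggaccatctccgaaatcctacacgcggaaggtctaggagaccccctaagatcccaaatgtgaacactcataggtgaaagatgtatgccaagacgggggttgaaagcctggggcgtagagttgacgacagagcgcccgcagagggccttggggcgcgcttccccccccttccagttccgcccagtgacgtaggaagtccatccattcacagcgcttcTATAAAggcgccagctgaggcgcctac
Junb, chr8:85705348-85705597, minus strand: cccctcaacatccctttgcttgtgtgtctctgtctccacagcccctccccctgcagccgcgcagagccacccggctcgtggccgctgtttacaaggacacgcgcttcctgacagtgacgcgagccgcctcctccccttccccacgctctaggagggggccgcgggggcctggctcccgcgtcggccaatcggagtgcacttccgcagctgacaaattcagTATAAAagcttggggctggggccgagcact
Atf3, chr1:190915538-190915787, minus strand: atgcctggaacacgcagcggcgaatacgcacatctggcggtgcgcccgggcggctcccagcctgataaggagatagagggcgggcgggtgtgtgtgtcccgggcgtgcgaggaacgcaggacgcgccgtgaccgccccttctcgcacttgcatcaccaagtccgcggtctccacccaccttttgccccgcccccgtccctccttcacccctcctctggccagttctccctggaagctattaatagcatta
Maff, chr15:79231470-79231719, plus strand: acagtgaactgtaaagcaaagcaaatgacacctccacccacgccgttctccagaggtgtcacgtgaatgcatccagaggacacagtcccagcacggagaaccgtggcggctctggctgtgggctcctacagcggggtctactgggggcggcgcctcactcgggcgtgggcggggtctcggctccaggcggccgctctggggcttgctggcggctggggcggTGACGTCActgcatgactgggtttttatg

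The Fos stretch lies between genes, the Atf3 and Maff stretches lie in an intron of longer transcripts of the same gene, and the last bases of the Junb stretch lie in the first exon of another Junb transcript. An antisense long noncoding gene also crosses the Maff stretch. Windows of 300 bases, which reached 50 bases past the start, were searched on both strands for 9 members and for 21260 promoters of protein-coding genes, and Egr1 was not searched. The TATA box began 27 bases before the start of Fos and 30 bases before that of Junb, was also found in Myc and Fosl1 on the minus strand, and was held by 13.3% of all promoters. The full cAMP response element began 29 bases before the start of Maff, was found in 1 of the 9 members and was held by 2.45% of all promoters. Partial forms were not searched for, and the Fos stretch holds its opening letters, TGACGT. The GC box (GGGCGG) was found in 8 of the 9 members, all but Junb, and in 42.4% of all promoters. The E-box (CACGTG), which MYC with MAX binds, was found in Klf4 and Maff and in 7.86% of all promoters. The AP-1 site (TGANTCA) and the CArG box of SRF were found in 0 of the 9 members and in 7.19% and 1.56% of all promoters, which says only that these letters do not stand in these windows. A match describes the letters and not a bound site.

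Values are TPM, a transcript's length-corrected share of a library set to a fixed total, so that levels can be compared between genes and each value also moves with the rest of the library. TPM keeps no read depth, and no counting error can be given. Fold changes were computed by limma on log2(TPM + 1), LrpprcP27A minus LrpprcWT, for the 11611 genes with a mean of at least 1 TPM, and adding 1 makes the change of weakly expressed genes look smaller than it is. At an adjusted p under 0.05, 2705 of these genes were lower with LrpprcP27A (23.3%) and 156 were higher (1.34%). With the same-numbered contralateral muscles as a replicate block, 5619 were lower (48.4%). The median log2 fold change of all genes tested was -0.32 on the deposited scale, and median-of-ratios scaling, which centres each library on its middle gene, shifted it by 0.35. On that scale 675 genes were lower (5.81%) and 793 were higher (6.83%). The 3 LrpprcP27A values lay below the 3 LrpprcWT values for 47.6% of the genes tested. A ribosomal RNA-like gene, Rn18s-rs5, took 8874 to 17614 TPM with LrpprcWT and 37023 to 44435 TPM with LrpprcP27A. Its part in the differences below was not tested. With Rn18s-rs5 and the mitochondrial genes left out of the total together, 662 genes were lower, and the share of each in that change was not separated. Lrpprc itself measured 35.1, 37.0 and 75.2 TPM in the LrpprcWT muscles and 26.9, 29.7 and 26.0 TPM in the LrpprcP27A muscles.

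All 10 members had a lower mean TPM with LrpprcP27A. Of the 9 that were tested, 6 were lower at an adjusted p under 0.05 (limma) and 0 were higher (8 and 0 at an unadjusted p under 0.05), against 23.3% and 1.34% of all genes, from which nothing is read because this contrast chose the members. Under the replicate block 9 were lower, and with median-of-ratios scaling 3 were. The log2 fold change was below 0 for all 9 on both scales, with a median of -1.34 on the deposited scale and -0.92 with median-of-ratios scaling. In 6 of the 10 members the 3 LrpprcP27A values lay below the 3 LrpprcWT values, and in Fos, Jun, Egr1 and Maff the groups overlapped. Among the 9 tested members this held for 5, near the 47.6% of all genes tested. With median-of-ratios scaling the groups were apart in 5, namely Atf3, Fosl2, Myc, Klf4 and the untested Fosl1, and Junb overlapped too. On that scale 16.4% of all genes tested lay below without overlap. In bulk muscle, fewer cells that express a gene and less RNA per cell cannot be told apart.

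**Figure D1:**
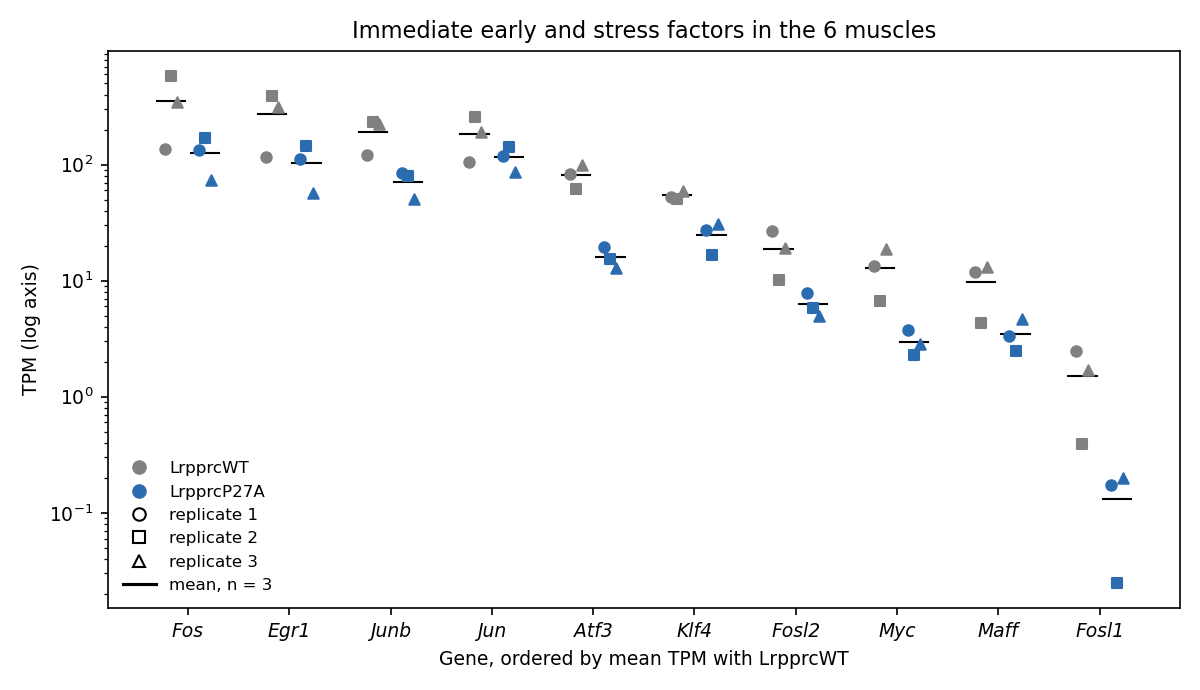
TPM of the 10 genes in each of the 6 muscles on a log axis, with LrpprcWT in grey, LrpprcP27A in blue, the shape giving the replicate number and the bars the mean of 3 muscles. The LrpprcP27A mean is the lower of the pair in all 10 genes, and the square of LrpprcWT replicate 2 is the highest grey point for Fos, Egr1, Junb and Jun and the lowest for the other 6 genes.

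In the LrpprcWT muscles Fos had the highest mean level at 354 TPM ± 222 (SD, n = 3), followed by Egr1, Junb and Jun, and the ranges of these 4 neighbours overlapped. Atf3 came next with 81.5 TPM ± 19.2 (SD, n = 3) and Klf4 with 54.2 TPM ± 4.56 (SD, n = 3), and the ranges of Jun, Atf3, Klf4 and Fosl2 followed one another without overlap. Fosl2, Myc and Maff, with means of 18.6, 13.0 and 9.81 TPM, overlapped their neighbours, and Fosl1 was far below them at 1.51 TPM ± 1.04 (SD, n = 3). With LrpprcP27A the same 4 genes led, with mean levels of 71.4 to 125 TPM. The mean of Klf4, 24.9 TPM, now stood above that of Atf3, 16.0 TPM, but the ranges of these neighbours overlapped.

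Atf3, a stress-induced factor of the Atf/CREB family that represses or activates depending on its partner, measured 83.2, 61.4 and 99.8 TPM in LrpprcWT replicates 1, 2 and 3. In the LrpprcP27A muscles it measured 19.6, 15.4 and 12.9 TPM. The groups stood far apart, with the lowest LrpprcWT muscle more than 3 times above the highest LrpprcP27A muscle. The ratio of the means was 0.196 and the log2 fold change -2.27, the 30th lowest of the 11611 genes tested. Within the 3 same-numbered pairs the log2 difference was -2.03, -1.93 and -2.86, and median-of-ratios scaling gave a log2 fold change of -1.86. Atf4, the factor of the integrated stress response that activates Atf3, measured 103, 112 and 122 TPM with LrpprcWT and 101, 119 and 114 TPM with LrpprcP27A. The ratio of the Atf3 to the Atf4 level was 0.805, 0.548 and 0.816 with LrpprcWT and 0.194, 0.129 and 0.113 with LrpprcP27A, without overlap.

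Fos, the founding Fos protein and a partner of Jun in AP-1, measured 135, 579 and 348 TPM with LrpprcWT and 133, 170 and 73.1 TPM with LrpprcP27A. LrpprcWT replicate 1 was at the level of its LrpprcP27A partner and LrpprcWT replicate 2 was 4.29 times above replicate 1, so that the groups overlapped. The ratio of the means was 0.354 and the log2 fold change -1.34. The log2 difference was -0.017 in pair 1, -1.77 in pair 2 and -2.24 in pair 3. The difference of Fos thus lay in pairs 2 and 3, and with median-of-ratios scaling Fos, Jun and Egr1 were higher with LrpprcP27A in pair 1. Fosb, the closest relative of Fos among the companions, measured 59.0, 174 and 80.3 TPM with LrpprcWT and 41.9, 35.4 and 17.9 TPM with LrpprcP27A, and fell with a log2 fold change of -1.62 (limma, adjusted p = 0.029).

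Fosl2, a Fos protein that lacks the strong activation domain of Fos, measured 26.7, 10.1 and 19.0 TPM with LrpprcWT and 7.89, 5.87 and 4.96 TPM with LrpprcP27A. All LrpprcP27A values lay below all LrpprcWT values, and the ratio of the means was 0.336 (log2 fold change -1.36). Fosl1, its close relative, had a mean of 0.82 TPM over the 6 muscles, under the minimum of 1 TPM, and was not tested. Fosl1 measured 2.45, 0.39 and 1.69 TPM with LrpprcWT and 0.173, 0.0251 and 0.20 TPM with LrpprcP27A. The groups did not overlap, but these levels lie near the bottom of the scale and their counting error is unknown. In both Fosl2 and Fosl1 LrpprcWT replicate 2 was the lowest LrpprcWT muscle, at 0.381 and 0.159 times the level of replicate 1, the opposite of Fos. Added over Fos, Fosb, Fosl1 and Fosl2, the Fos family measured 223, 764 and 449 TPM with LrpprcWT and 183, 211 and 96.1 TPM with LrpprcP27A, without overlap on this scale but with overlap after median-of-ratios scaling. Fos made up 60.5% to 77.5% of this sum with LrpprcWT and 72.7% to 80.4% with LrpprcP27A, and these shares overlapped.

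Jun, the partner of Fos that also forms AP-1 on its own, measured 106, 255 and 190 TPM with LrpprcWT and 118, 141 and 87.2 TPM with LrpprcP27A. Jun was the member with the smallest difference, a ratio of the means of 0.629 and a log2 fold change of -0.60. The LrpprcP27A muscle of pair 1 was above its LrpprcWT partner by 0.16 on the log2 scale, while pairs 2 and 3 differed by -0.85 and -1.11. Median-of-ratios scaling left a log2 fold change of -0.18. Junos, an antisense RNA that overlaps Jun, measured 0.668 to 0.831 TPM with LrpprcWT and 0.963 to 1.35 TPM with LrpprcP27A, and without strand information its reads and those of Jun cannot be told apart.

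Junb, a Jun protein that often opposes Jun and supports muscle growth, measured 120, 231 and 225 TPM with LrpprcWT and 83.9, 80.4 and 50.1 TPM with LrpprcP27A. The groups did not overlap on the deposited scale, the ratio of the means was 0.372 and the log2 fold change was -1.39, with pair 1 at -0.51 and pairs 2 and 3 at -1.51 and -2.14. Jund, the remaining Jun gene and a companion, measured 175, 212 and 187 TPM with LrpprcWT and 105, 88.7 and 68.3 TPM with LrpprcP27A. Jund fell with a log2 fold change of -1.14 (limma, adjusted p = 0.012). The makeup of the Jun family also differed, since Jun formed 26.4%, 36.5% and 31.5% of its summed TPM with LrpprcWT and 38.4%, 45.5% and 42.4% with LrpprcP27A. The share of Junb was 29.9%, 33.1% and 37.4% with LrpprcWT and 27.3%, 25.9% and 24.4% with LrpprcP27A. Neither share overlapped between the groups, and the share of Jund did. These shares do not depend on the scaling of the libraries. They restate the group differences of Jun and Junb, which were known when the genes were chosen, and support nothing further.

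Egr1, a zinc finger factor that reports MAP kinase activity in many tissues, measured 116, 387 and 314 TPM with LrpprcWT and 111, 145 and 56.5 TPM with LrpprcP27A. As for Fos, the muscles of pair 1 stood at the same level (log2 difference -0.055), and pairs 2 and 3 differed by -1.41 and -2.45. The ratio of the means was 0.383 and the log2 fold change -1.31. Egr2 and Egr3, its relatives among the companions, were much lower in TPM and fell with log2 fold changes of -1.24 and -1.24 (limma, adjusted p = 0.023 and 0.037).

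Klf4, a zinc finger factor that is induced by stress in fibroblasts and endothelium, was the most even member among the LrpprcWT muscles, at 53.0, 50.3 and 59.2 TPM. Its coefficient of variation there was 8.42%, against 62.7% for Fos. With LrpprcP27A it measured 27.4, 16.5 and 30.7 TPM, below all LrpprcWT values, and the ratio of the means was 0.459 (log2 fold change -1.13). The pairs differed by -0.93, -1.55 and -0.93 on the log2 scale.

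Myc, a growth factor-induced regulator of ribosome synthesis and metabolism, measured 13.4, 6.70 and 18.8 TPM with LrpprcWT and 3.79, 2.27 and 2.84 TPM with LrpprcP27A. The groups did not overlap and the ratio of the means was 0.229, the lowest after Fosl1 and Atf3, with a log2 fold change of -1.73. The ratio of Myc to its dimer partner Max was 0.939, 0.608 and 1.25 with LrpprcWT and 0.371, 0.299 and 0.27 with LrpprcP27A, without overlap. Max itself had a log2 fold change of -0.47 (limma, adjusted p = 0.067, or 0.005 under the replicate block).

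Maff, a small Maf protein without an activation domain that pairs with CNC factors such as NRF2, measured 11.96, 4.34 and 13.1 TPM with LrpprcWT and 3.31, 2.46 and 4.65 TPM with LrpprcP27A. The groups overlapped through LrpprcWT replicate 2, which lay under the highest LrpprcP27A muscle. The ratio of the means was 0.354 and the log2 fold change -1.18, and all 3 pairs were lower with LrpprcP27A, by log2 differences of -1.59, -0.63 and -1.32. Its relatives Mafk and Mafg had log2 fold changes of -0.87 and -0.32 (limma, adjusted p = 0.043 and 0.095, and under the replicate block 3.75e-05 and 0.037).

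**Figure D2:**
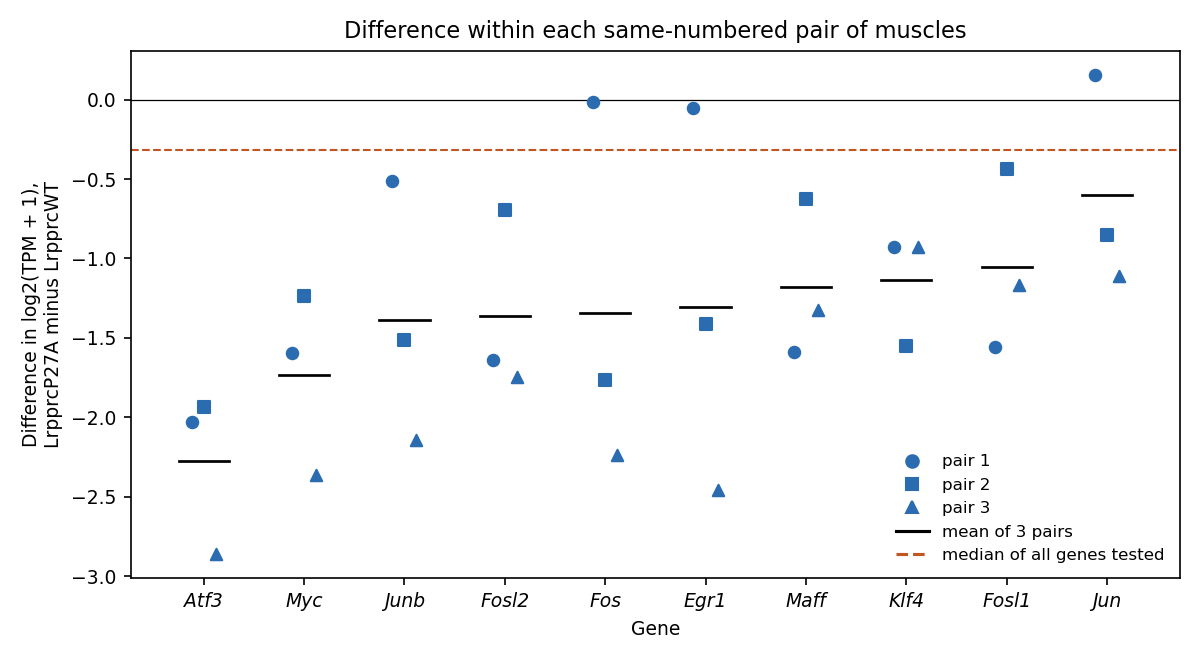
Difference in log2(TPM + 1), LrpprcP27A minus LrpprcWT, within each same-numbered pair of contralateral muscles for the 10 genes, with the bar at the mean of 3 pairs and the dashed line at -0.32, the median of all genes tested. Pair 1 lies at -0.017 for Fos, -0.055 for Egr1 and 0.16 for Jun, while its points for Atf3, Myc, Fosl2, Maff and Fosl1 lie below -1.5.

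The members differed from one another in how they varied among the LrpprcWT muscles. These values also enter the group differences known when the genes were chosen, so the pattern is described and not tested. LrpprcWT replicate 2 was the lowest of the LrpprcWT muscles for 80.8% of the genes tested and the highest for 6.63%. It was the highest for Fos, Jun, Junb and Egr1, 4 of the 9 members tested, and the lowest for the other 5. Median-of-ratios scaling, with size factors of 1.27, 0.981 and 1.28 for the LrpprcWT libraries, made replicate 2 the lowest for 32.5% of the genes and the highest for 40.2%, and on that scale it was also the highest for Klf4 and still the lowest for Atf3, Fosl2, Myc and Maff. In deposited TPM the level in replicate 2 over that in replicate 1 was 4.29 for Fos, 3.34 for Egr1, 2.41 for Jun and 1.93 for Junb. The same ratio of TPM was 0.949 for Klf4, 0.738 for Atf3, 0.498 for Myc, 0.381 for Fosl2 and 0.363 for Maff. The 4 genes that peaked in this muscle were also the 4 most abundant members.

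Deviations of log2(TPM + 1) from the group means on the deposited scale showed the same division. They hold the same LrpprcWT values and are no separate evidence. The 6 libraries share these 2 means and are described with no test. Fos correlated with Jun by 1.00, with Egr1 by 0.98 and with Junb by 0.94. A second set of positive correlations joined Fosl1 with Maff (0.91), Fosl1 with Fosl2 (0.90), Myc with Maff (0.88), Atf3 with Myc (0.87) and Atf3 with Fosl2 (0.78). Between the sets the correlations were negative or weak, from -0.86 between Jun and Fosl1 to 0.22 between Junb and Atf3. Klf4 correlated by no more than 0.55 with any other member. After median-of-ratios scaling the first set still correlated by 0.96 to 1.00, while the second spread from 0.027 to 0.87, so that only the first was as tight on both scales.

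**Figure D3:**
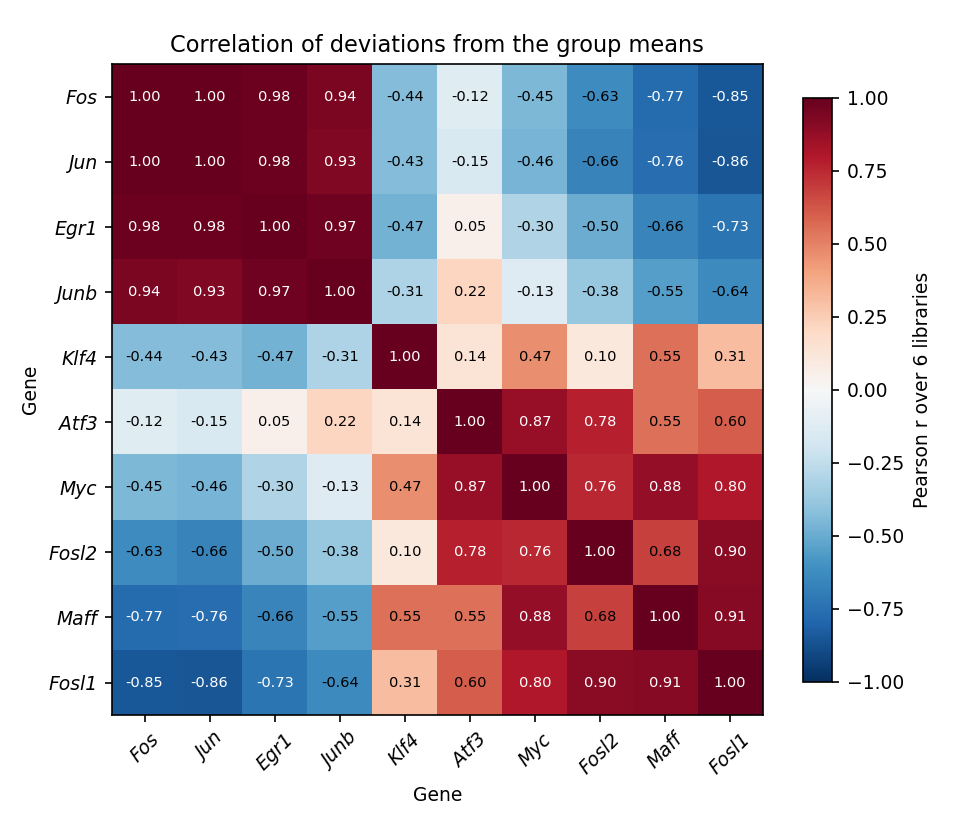
Pearson correlation of deviations from the group means in log2(TPM + 1) over the 6 libraries for each pair of the 10 genes, with red for positive and blue for negative values. The upper left block of Fos, Jun, Egr1 and Junb holds values of 0.927 and above, and this block is blue or pale against Fosl2, Maff and Fosl1.

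Among all genes tested, those whose deviations were most like those of Fos were Jun, Zfp354a, Dusp1, Drap1 and Car4, a list drawn up after the values had been seen. Dusp1, a phosphatase that switches off MAP kinases and is itself an immediate early gene, was 3rd with a correlation of 0.99, Ier2 was 6th with 0.98 and Zfp36, which destabilises AU-rich mRNAs, was 15th with 0.96. Dusp1 measured 73.7, 154 and 121 TPM with LrpprcWT and 88.6, 88.3 and 63.4 TPM with LrpprcP27A, and Ier2 measured 58.9, 185 and 146 TPM and 59.4, 81.6 and 32.2 TPM. As for Jun, pair 1 of Dusp1 was higher with LrpprcP27A. Their log2 fold changes of -0.49 and -1.10 did not pass the test without pairing (limma, adjusted p = 0.153 and 0.083) and did under the replicate block (limma, adjusted p = 0.023 and 0.00094). Of the 172 companion genes tested, 11 were highest in LrpprcWT replicate 2 and 136 were lowest in it, against 6.63% and 80.8% of all genes tested. The 11 were Fosb, Jund, Ier2, Zfp36, Gadd45b, Dusp1, Dusp10, Rps6ka1, Atf5, Chac1 and Nqo1.

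Atf3 was most alike in level over the 6 libraries to Lrfn4, Klhl17, Pigh, Gdnf and Sat1, with correlations of 0.9979 to 0.9988. Sat1, the enzyme that acetylates polyamines, measured 40.1, 34.1 and 47.4 TPM with LrpprcWT and 18.6, 16.0 and 13.5 TPM with LrpprcP27A. Gdnf, a neurotrophic factor made by muscle, measured 2.84, 2.25 and 3.18 TPM with LrpprcWT and 0.738, 0.666 and 0.457 TPM with LrpprcP27A. Both followed the order of Atf3 in every muscle. By deviations from the group means the 5 most alike were Bloc1s1, Zfp764, Tmem267, Ap4s1 and Cstb, with correlations of 0.994 or more. The closest member by level was Myc, 684th of the genes tested with a correlation of 0.96, followed by Fosl2 at 0.92, while Fos was 7880th at 0.65 and Jun 8673rd at 0.54.

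The companions of the members were read from 11 lists of 193 genes, of which 172 were tested. These lists were also drawn up with earlier results of these data known. Their counts, shares, medians and p-values therefore describe the lists and are no independent support. At an adjusted p under 0.05 (limma), 59 of them were lower with LrpprcP27A and 1 was higher, 34.3% and 0.581% of those tested against 23.3% and 1.34% of all genes. The replicate block made 112 lower, 65.1% against 48.4% of all genes, and median-of-ratios scaling made 22 lower and 11 higher, 12.8% and 6.4% against 5.81% and 6.83%. The median log2 fold change was -0.47 against -0.32 for all genes tested. The counts of each list below stand beside these same shares of all genes. Of the companions named below as fallen, Gem, Nr4a2, Csrnp1, Creb3l1, Dusp5, Gdf15, Klf5, Klf6, Il6, Spp1 and Timp1 also passed with median-of-ratios scaling, and the others, with Fosb, Jund, Egr2, Egr3 and Mafk above, did not. The counts hung on single muscles. At an unadjusted p under 0.05, 88 were lower and 1 was higher. Without LrpprcWT replicate 3, 0 companions were lower or higher by limma (61 and 1 at an unadjusted p under 0.05), without LrpprcWT replicate 1 the count was 15, without LrpprcP27A replicates 2 or 3 it was 25 or 17, and without LrpprcWT replicate 2 it was 110.

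**Figure D4:**
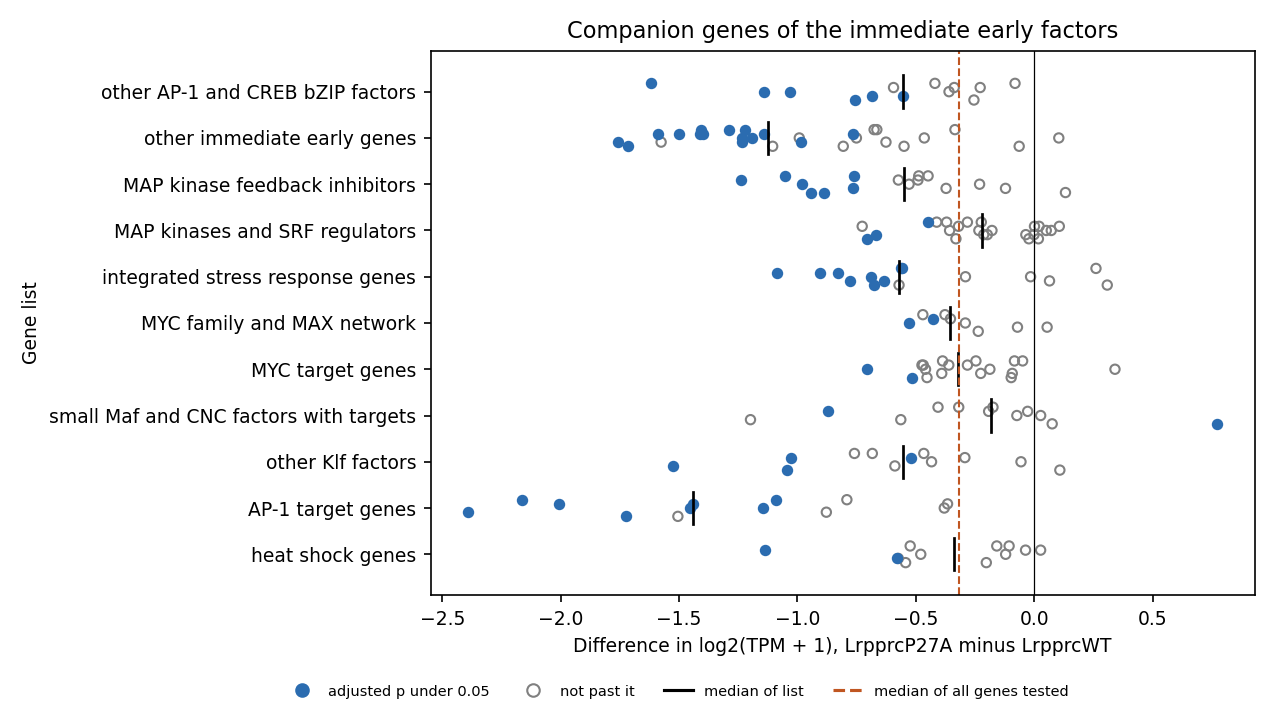
Difference in log2(TPM + 1), LrpprcP27A minus LrpprcWT, of each companion gene tested, by list, with filled points for genes past an adjusted p of 0.05, a black bar at each list's median and a dashed line at -0.32, the median of all genes tested. The medians of the other immediate early genes (-1.12) and the AP-1 target genes (-1.44) lie farthest to the left.

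Among the other immediate early genes 15 of 28 tested fell and 0 rose, 25 fell under the replicate block, and the median was -1.12 (-0.71 with median-of-ratios scaling, where 9 fell). Gem, a small GTPase that limits calcium channels, measured 19.1, 9.33 and 19.4 TPM with LrpprcWT and 5.56, 4.05 and 2.32 TPM with LrpprcP27A, a log2 fold change of -1.76 (limma, adjusted p = 0.016). Nr4a2, an orphan nuclear receptor, and Csrnp1, a nuclear protein induced by axin, had log2 fold changes of -1.72 and -1.59 (limma, adjusted p = 0.02 and 0.016). All 3 were lowest with LrpprcWT in replicate 2, as were Atf3 and 80.8% of all genes tested. Ier3, which modulates ERK signalling and survival, fell by 1.22 on the log2 scale (limma, adjusted p = 0.024). Nr4a1, the most abundant nuclear receptor of this list, measured 275, 212 and 446 TPM with LrpprcWT and 187, 135 and 278 TPM with LrpprcP27A, with a log2 fold change of -0.63 (limma, adjusted p = 0.135, or 0.00029 under the replicate block).

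Genes that AP-1 is known to activate had the lowest median, -1.44 on the deposited scale and -1.03 with median-of-ratios scaling, and 8 of 13 tested fell while 0 rose (12 fell under the replicate block, 6 with median-of-ratios scaling). Il6, a cytokine that contracting and injured muscle releases, measured 8.36, 1.29 and 12.3 TPM with LrpprcWT and 0.744, 0.042 and 0.0838 TPM with LrpprcP27A, a log2 fold change of -2.39 (limma, adjusted p = 0.026). Spp1, the matrix protein osteopontin, and Timp1, an inhibitor of matrix proteases, fell by 2.16 and 2.01 on the log2 scale (limma, adjusted p = 0.016 and 0.019). Macrophages and fibroblasts of injured muscle also express these 3 genes.

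The kinases and factors upstream of the immediate early promoters stood nearer to the median of all genes. Of 24 MAP kinases and SRF regulators tested, 3 fell and 0 rose (12.5% lower against 23.3% of all genes), and the median was -0.22. Under the replicate block 9 fell (37.5% against 48.4%). With median-of-ratios scaling 0 fell (1 at an unadjusted p under 0.05), 4 rose and the median was 0.14. The 3 were Mapk7 (ERK5), Mapk3 (ERK1) and Elk1, with log2 fold changes of -0.71, -0.67 and -0.45 (limma, adjusted p = 0.039, 0.027 and 0.045). Srf measured 61.6, 45.3 and 52.3 TPM with LrpprcWT and 52.9, 49.2 and 52.0 TPM with LrpprcP27A, a log2 fold change of -0.036 (limma, adjusted p = 0.827), which turned to 0.38 with median-of-ratios scaling (adjusted p = 0.041). Of the 16 MAP kinase feedback inhibitors tested, which are themselves induced by these kinases, 7 fell and 0 rose, 13 fell under the replicate block, and the median was -0.55, while with median-of-ratios scaling 3 fell and the median was -0.17. Dusp5, Dusp4 and Dusp14, dual specificity phosphatases, had log2 fold changes of -1.24, -1.05 and -0.98 (limma, adjusted p = 0.021, 0.037 and 0.032), and with median-of-ratios scaling Dusp4 and Dusp14 no longer passed (adjusted p = 0.07 and 0.099). mRNA levels say nothing about kinase activity, which was not measured here.

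Among the other AP-1 and CREB leucine zipper factors 6 of 13 tested fell and 0 rose, 10 fell under the replicate block and 1 with median-of-ratios scaling, and the median was -0.56. Beside Fosb and Jund, Creb3l1, a membrane-bound factor that drives collagen secretion, fell by 1.03 on the log2 scale (limma, adjusted p = 0.022), while Jdp2, a repressor of AP-1, had a log2 fold change of -0.59 (adjusted p = 0.13, or 0.0015 under the replicate block). Among 12 Klf factors tested 4 fell and 0 rose, 9 fell under the replicate block and 2 with median-of-ratios scaling. Klf5, Klf6 and Klf2 had log2 fold changes of -1.52, -1.04 and -1.03 (limma, adjusted p = 0.013, 0.016 and 0.012), and Klf2, a factor of endothelium and myeloid cells, measured 58.4 to 84.4 TPM with LrpprcWT and 31.2 to 36.8 TPM with LrpprcP27A.

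Of the 15 integrated stress response genes tested, 9 fell and 0 rose (60% lower against 23.3% of all genes), with a median of -0.57. Under the replicate block 10 fell (66.7% against 48.4%), and with median-of-ratios scaling 1 did (6.67% against 5.81%). Gdf15, a stress-induced hormone, Asns, which makes asparagine, and Psat1, which makes serine, had log2 fold changes of -1.09, -0.91 and -0.83 (limma, adjusted p = 0.017, 0.04 and 0.048). Atf4, which activates all 3, had a log2 fold change of -0.016 (limma, adjusted p = 0.912), or 0.40 with median-of-ratios scaling (adjusted p = 0.103), and its protein was not measured. Among 12 heat shock genes tested 2 fell (16.7% against 23.3% of all genes). They were Dnajb1 and Hsf2, by 1.14 and 0.58 on the log2 scale (limma, adjusted p = 0.029 and 0.046). Under the replicate block 6 heat shock genes fell (50% against 48.4%), and 0 rose in either fit. The median was -0.34, or 0.081 with median-of-ratios scaling.

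The genes around Myc lay at the median of all genes. Of 9 members of the MYC and MAX network tested 2 fell, Mxd4 and Mxd1, which antagonise MYC, by 0.53 and 0.43 on the log2 scale (limma, adjusted p = 0.049 and 0.048), and the median was -0.35. Of 18 MYC target genes of ribosome synthesis and metabolism 2 fell, Cdk4 and Nop56, by 0.70 and 0.52 (limma, adjusted p = 0.03 and 0.045), with a median of -0.32. Under the replicate block 4 and 9 fell, and with median-of-ratios scaling 0 fell and 1 rose in each list (0 and 1 fell at an unadjusted p under 0.05). Of 12 small Maf and CNC factors and their targets 1 fell, Mafk, and 1 rose, and 5 fell under the replicate block. The gene that rose was Nqo1, a quinone reductase under NRF2, at 7.97, 8.97 and 8.40 TPM with LrpprcWT and 14.9, 14.2 and 16.3 TPM with LrpprcP27A, a log2 fold change of 0.77 (limma, adjusted p = 0.013). With median-of-ratios scaling 0 of these 12 genes fell (1 at an unadjusted p under 0.05) and 4 rose, with a median of 0.21.

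Markers of macrophages and fibroblasts were also lower with LrpprcP27A, and those of other cells less uniformly so. The summed TPM of 7 macrophage markers was 170, 123 and 281 with LrpprcWT and 97.5, 40.8 and 72.5 with LrpprcP27A, and 7 of 7 fell. The sum of 5 fibroblast markers was 1350, 811 and 1208 TPM with LrpprcWT and 464, 212 and 268 TPM with LrpprcP27A, and 5 of 5 fell. Of all genes tested 23.3% fell on this scale and 5.81% with median-of-ratios scaling. On the latter scale Adgre1, Csf1r, C1qa and C1qb no longer passed (limma, adjusted p = 0.057, 0.144, 0.082 and 0.104). Of the fibroblast markers Pdgfra and Dcn did not either (limma, adjusted p = 0.106 and 0.272). The macrophage and fibroblast sums did not overlap between the groups on either scale. Both were lowest with LrpprcWT in replicate 2, as were 80.8% of all genes tested in deposited TPM. Atf3, Fosl2, Myc and Maff shared this, but not Fos, Jun, Junb and Egr1. Satellite cell markers summed to 31.5 to 52.7 TPM with LrpprcWT and 21.0 to 28.1 TPM with LrpprcP27A (2 of 3 tested fell), overlapping after median-of-ratios scaling, and endothelial markers to 158 to 288 and 117 to 163 TPM (1 of 5 fell). Neutrophil markers overlapped at 35.2 to 57.1 and 25.4 to 41.3 TPM, with 0 of 4 tested called by limma (1 at an unadjusted p under 0.05) and Ly6g at 0 in 5 libraries, and 4 T cell markers summed to under 1 TPM in every library, with Trbc2 at 0. Markers of fast myofibres, which define the tissue, summed to 98250 to 109033 TPM with LrpprcWT and 94167 to 106880 TPM with LrpprcP27A, and 0 of 6 were called by limma (with no adjustment, p was under 0.05 for 1 lower and 1 higher gene). The part of cell composition in the values of the members was not tested.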

How the data were processed

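The study sequenced RNA of 6 TA muscles (TruSeq v2, unstranded). The authors trimmed reads (Phred 20, at least 50 bases), mapped them with CLC Genomics Workbench 20.0.4 to GRCm39 and deposited TPM values for 41709 genes, and the annotation behind them is not given in the sources used here. Depth per library is unknown.

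The groups were compared with limma 3.58.1 (R 4.3.3; empirical Bayes with trend) on log2(TPM + 1) for genes with a mean of at least 1 TPM, with Benjamini-Hochberg adjustment over 11611 genes, and the fit was checked on simulated data. The study's own Kruskal-Wallis test was an alternative. The members and lists were chosen with earlier results of these data known. Named companions were, of each list, the 3 lowest and 3 highest fold changes past an adjusted p of 0.05 and a preset group of relatives, together with the 5 genes most like Atf3. Ly6g, Trbc2, the other cell type markers named singly, Junos and Rn18s-rs5 were named after their values had been seen. So were Gadd45b, Zfp36, Dusp10, Rps6ka1, Atf5, Chac1 and the genes most like Fos. Spry3 and Ddit3 were not analysed here.

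Same-numbered muscles were taken as pairs, since the methods describe contralateral muscles, and their deviations from the group means correlated by 0.36, 0.53 and 0.36 across genes. Whether each number is 1 mouse is not stated outright. Positions and promoters came from GENCODE M39, matched by symbol.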

Additional observations from a re-analysis of the deposited data

How the results depend on the processing

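The log2 fold changes of the 9 tested members stayed below 0 under every setting run, with ranges of -2.46 to -1.86 for Atf3, -1.92 to -0.87 for Fos, -0.95 to -0.18 for Jun and -1.83 to -0.89 for Egr1. Without LrpprcWT replicate 2, where Fos, Jun and Egr1 peaked, their values were -0.87, -0.32 and -0.97, and without LrpprcWT replicate 1 they were -1.92, -0.95 and -1.83.

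The count of lower genes, 2705, was 42 with no filter on low values, 1560 with a minimum mean of 5 TPM, 675 with median-of-ratios scaling, 662 with the total rescaled without mitochondrial genes and Rn18s-rs5, 518 with quantile normalization and 0 by the Kruskal-Wallis test (5530 at an unadjusted p under 0.05), which cannot pass the adjusted threshold with 3 against 3. Leaving out 1 library gave 15 to 6913. The count of higher genes, 156, was 9, 793 and 493 with no filter, median-of-ratios scaling and quantile normalization, 0 by Kruskal-Wallis (407 unadjusted), and 3 to 304 with 1 library left out. The lowest counts of both came without LrpprcWT replicate 3 and the highest without LrpprcWT replicate 2.

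With the replicate block, which pairs contralateral muscles, 5619 genes were lower and 312 higher, and with the block and median-of-ratios scaling together 1636 were lower and 1995 higher. The paired fit called 112 companion genes lower. It has 2 residual degrees of freedom and leans on a prior of 16.9, against 4 and 4.76 without the block.

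The 59 lower companion genes became 2 with no filter, 34 at 5 TPM, 22 with median-of-ratios scaling, 19 with the rescaled total, 18 with quantile normalization and 0 by Kruskal-Wallis (79 unadjusted), and 0 to 110 with 1 library left out. The 1 higher companion gene became 0 with no filter and by Kruskal-Wallis (1 unadjusted), 11 with median-of-ratios scaling, 2 with quantile normalization, 26 with the block and median-of-ratios scaling, and 0 to 2 with 1 library left out.

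Directions turned for 3 named genes. Srf was 0.38 with median-of-ratios scaling with and without the block, 0.15 with the rescaled total, 0.22 with quantile normalization and -0.14 to 0.076 with 1 library left out. Atf4 was 0.40, 0.17 and 0.25 under the same scalings and -0.075 to 0.052 with 1 library left out. Mafg was 0.089 with median-of-ratios scaling with and without the block. The cause of these changes was not tested. TPM holds no depth, so the counting error of low members such as Fosl1 is unknown, and 3 muscles a group limit every comparison.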
